A study of Mus musculus with 16 samples.

Results

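The RNAs described are 7 noncoding RNAs of mouse cells: the snoRNA host genes Gas5, Snhg1, Snhg3 and 2410006H16Rik, the RNase MRP RNA Rmrp, and the minor spliceosomal RNAs Rnu11 (U11) and Rnu12 (U12). They were taken by name, with coverage summed over every listed region that overlaps the gene span of the RefSeq annotation of GRCm38.p6 (mm10). They make up 7 of the 3630 genes with a region and hold 27 of 8338 regions. The data come from KIN-CLIP, a form of iCLIP in which a femtosecond pulsed ultraviolet laser crosslinks the germ cell protein Dazl to its RNAs for defined periods and the RNA bound to it is sequenced. Every library came from 1 clone of GC-1 spg, a spermatogonial line, engineered so that doxycycline switches Dazl on. The groups are 2.6 mW with 4.2x Dazl, 2.6 mW with 1x Dazl, 1 mW with 4.2x Dazl and 1 mW with 1x Dazl, each at 30, 180 and 680 s of crosslinking. Each of these 12 conditions had 1 library, so no value has an SD, and the 4 samples of 0 s were not analysed here.

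Most snoRNAs of mammals are cut from introns of longer transcripts. The box C/D class guides 2′-O-methylation and the box H/ACA class guides pseudouridylation of ribosomal and spliceosomal RNA. In host genes such as Gas5 the spliced RNA that remains carries no conserved protein, starts with a pyrimidine tract like that of ribosomal protein mRNAs, and is removed by nonsense-mediated decay. Rmrp is the RNA of RNase MRP, a nucleolar enzyme that cuts precursor ribosomal RNA. U11 and U12 act together in a particle of the minor spliceosome, where U11 pairs with the 5′ splice site and U12 with the branch site of rare introns. Dazl is known for binding GUU-containing sites in the 3′ ends of germ cell mRNAs.

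The first 50 transcribed bases of the 4 host genes are shown because they are the stretch of these RNAs that the sequence tables hold, and because the start of the host RNA separates it from the snoRNAs inside it. They come from RefSeq on GRCm38.p6, 5′ to 3′ along the RNA, and capitals mark GTT, the DNA form of the Dazl core letters. The first Gas5 start is at chr1:161034601-161034650 and the second at chr1:161035166-161035215, both on the plus strand. Snhg1 is at chr19:8723487-8723536 (plus), Snhg3 at chr4:132353637-132353686 (minus) and 2410006H16Rik at chr11:62602877-62602926 (plus).
Gas5, first start: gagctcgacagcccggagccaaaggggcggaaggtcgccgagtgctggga
Gas5, second start: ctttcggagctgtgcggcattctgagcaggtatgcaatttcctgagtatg
Snhg1: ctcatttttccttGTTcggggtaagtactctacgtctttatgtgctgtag
Snhg3: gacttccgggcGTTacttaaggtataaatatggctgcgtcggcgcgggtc
2410006H16Rik: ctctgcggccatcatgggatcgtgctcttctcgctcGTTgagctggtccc

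The second Gas5 start opens with 5 pyrimidines, 2410006H16Rik with 4 and Snhg1 with 3, while the first Gas5 start and Snhg3 open with a purine. GTT was found once each in Snhg1, Snhg3 and 2410006H16Rik and in neither Gas5 window. Over 32851 windows of 50 transcribed bases, 42.3% held GTT, and 38.5% held AAC, its letters on the other strand, which was in none of the 5 windows. No listed region lies in these windows. The nearest lay downstream, 246 nt from the second Gas5 start, 473 nt from the start of 2410006H16Rik, 633 nt from that of Snhg3 and 644 nt from that of Snhg1. The bases under the 27 regions were not read, since no genome sequence was used here.

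Coverage is the authors' normalized coverage summed over the positions of a region, a whole number per position from 1 to 24 without a stated depth in reads. Library totals ran from 11271 to 252932, and all 8338 regions had a value in every library. A region value of 1 is the lowest the files list and was frequent in weak libraries, with 22 and 24 of the 27 regions of these RNAs at 1 in the libraries of 1 mW and 1x Dazl taken at 30 and 180 s, and 0 at 680 s. Of all 8338 regions, 74.0%, 80.5% and 7.99% were at 1 in these libraries, in the same order. In the series of 2.6 mW and 4.2x Dazl, 15 of the 27 regions had exactly the same value at 30 and 680 s, as did 45.4% of all 7303 regions with at least 10 at 680 s. Of these 7303 regions, 0 were higher at 30 than at 680 s. At 1 mW and 4.2x Dazl 512 of 6773 were higher and 2.52% tied. At 2.6 mW and 1x Dazl 556 of 7196 were higher and 1.47% tied. How the values were normalized is unknown, so equal values at 30 and 680 s need not mean early filling. The p-values below take the libraries as independent, which these ties do not bear out. They measure only the spread of single libraries around an additive fit, pooled in part over genes. That spread also holds any departure from additivity. Of germ cell markers 4 of 16 had a region (Etv5, Mov10l1, Rhox13 and Sall4, mean coverage 1.67 to 6.83) and Dazl had none. Of other testis cell markers, 2 of 6 Sertoli and 1 of 4 endothelial genes had a region, and 0 of 5 Leydig and 0 of 4 macrophage genes.

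Regions lay in the snoRNAs of the host genes as well as between them. Of 23 regions in the 4 hosts, 12 overlapped an annotated snoRNA gene and 11 did not, while snoRNA genes take up 17.1% of the host spans. The 12 held 56.4% of the hosts' coverage summed over the 12 libraries. The files give no strand and the annotation used holds no exons, so exon and intron positions were not assigned outside snoRNAs. Of 21 snoRNA genes inside the hosts, 11 had a region.

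Snhg1, the host of the U22 gene cluster on chromosome 19 (8723487 to 8726326), had 10 regions, 6 of them in 5 of its 8 snoRNA genes. Snord22, the box C/D snoRNA U22, held the regions at 8725874 to 8725890 and at 8725959 to 8725994, and the second, 36 nt long, runs 3 nt past the end of the snoRNA. Gas5, a growth arrest RNA on chromosome 1 (161034601 to 161038539), had 8 regions, 4 of them in 4 of its 8 snoRNA genes, among them 161038130 to 161038146 in Snord47. Another annotated gene spans 5 of the 8 Gas5 regions, all of those from 161037616 on, and without strand their coverage and the Gas5 sum cannot be given to Gas5 alone. Snhg3, the host of the U17 snoRNAs on chromosome 4 (132351933 to 132353686), had 1 region in the box H/ACA snoRNA gene Snora73a, at 132352879 to 132352895, and 1 outside, at 132353037 to 132353053. Snora73a and Snora73b are close copies, so the placement of the first is uncertain. 2410006H16Rik, a host on chromosome 11 (62602877 to 62604806), had 1 of its 3 regions in Snord65, at 62604569 to 62604585, and none in Snord49a or Snord49b.

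The 3 small RNAs had 4 regions of 17 nt, none of them overlapping another gene of the annotation. Rmrp (chromosome 4, 43492785 to 43493059, 275 nt) had regions at 43492807 to 43492823 and at 43492926 to 43492942, 102 nt apart. Rnu11 (chromosome 4, 132270079 to 132270186, 108 nt) had 1 region at 132270096 to 132270112, which starts 17 nt from one end of the gene. Rnu12 (chromosome 15, 83149645 to 83149794, 150 nt) had 1 at 83149729 to 83149745, in the interior, 49 nt from the nearer end. The annotation used gives no strand for these 3 genes. Regions covered 15.7% of the Rnu11 span, 12.4% of Rmrp and 11.3% of Rnu12, against 6.65% of Snhg1, 3.45% of Gas5, 2.64% of 2410006H16Rik and 1.94% of Snhg3.

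**Figure D1:**
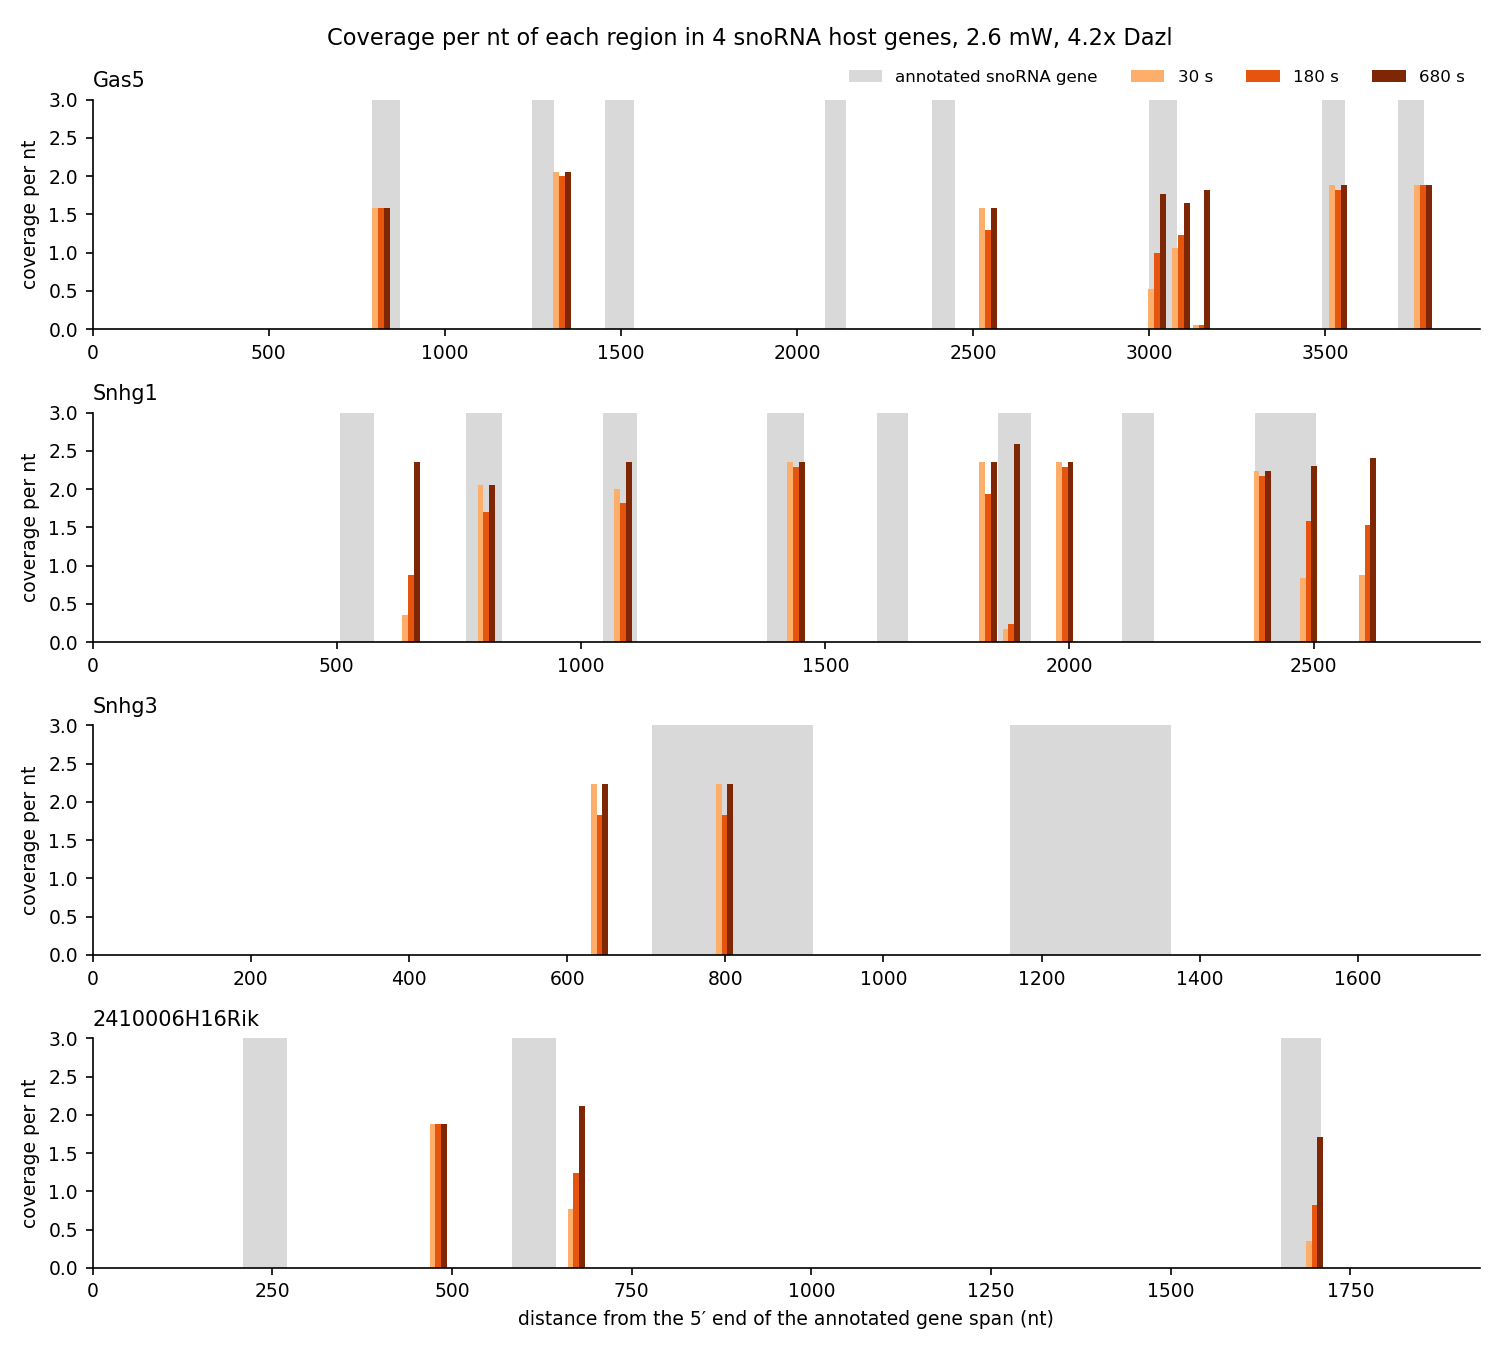
Coverage per nt (vertical axis) of each region of the 4 host genes against distance in nt from the 5′ end of the gene span, in the 3 libraries of 2.6 mW and 4.2x Dazl. Bars for 30, 180 and 680 s are drawn side by side at the region's centre and are wider than the region, and grey bands are annotated snoRNA genes. At 680 s every region had a summed coverage of 27 or more, while at 30 s the sixth region of Gas5 had a coverage of 1 and the sixth of Snhg1 had 3.

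Among the hosts, Snhg1 carried the most coverage over the 12 libraries and Snhg3 the least, with means of 199 and 38.9, and Gas5 and 2410006H16Rik had 109.8 and 41.9. At 30, 180 and 680 s, Snhg1 had 281, 310 and 441 at 2.6 mW with 4.2x Dazl, 141, 159 and 379 at 2.6 mW with 1x, 135, 77 and 275 at 1 mW with 4.2x, and 29, 16 and 142 at 1 mW with 1x. Gas5 had 181, 185 and 242 at 2.6 mW with 4.2x, 88, 76 and 196 at 2.6 mW with 1x, 65, 52 and 138 at 1 mW with 4.2x, and 9, 8 and 77 at 1 mW with 1x. In both RNAs every 680 s library was above the earlier libraries of its series, and the 4 series kept the same order at each time. Because these are sums over 10 and 8 regions, they do not compare binding between the RNAs. Sets of 3 values below are in the order 30, 180 and 680 s.

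2410006H16Rik had 51, 67 and 97 at 2.6 mW with 4.2x, 44, 33 and 84 at 2.6 mW with 1x, 23, 14 and 54 at 1 mW with 4.2x, and 4, 3 and 29 at 1 mW with 1x. Snhg3 had 76, 62 and 76 at 2.6 mW with 4.2x, 44, 37 and 64 at 2.6 mW with 1x, 18, 17 and 50 at 1 mW with 4.2x, and 2, 2 and 19 at 1 mW with 1x. Snhg3 was the host whose 30 s value equalled that of 680 s in the series of 2.6 mW and 4.2x, and both of its regions went 38, 31 and 38 there. At 1 mW and 1x Dazl, Snhg3 at 30 and 180 s stood at the lowest listed value in each region.

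The small RNAs took different courses. Rmrp had 55, 66 and 97 at 2.6 mW with 4.2x, 15, 15 and 78 at 2.6 mW with 1x, 50, 26 and 57 at 1 mW with 4.2x, and 2, 2 and 41 at 1 mW with 1x. Rnu11 had 38, 33 and 38 at 2.6 mW with 4.2x, 29, 21 and 26 at 2.6 mW with 1x, 16, 10 and 27 at 1 mW with 4.2x, and 1, 1 and 9 at 1 mW with 1x. Rnu12 had 5, 17 and 55 at 2.6 mW with 4.2x, 4, 1 and 44 at 2.6 mW with 1x, 1, 1 and 37 at 1 mW with 4.2x, and 1, 1 and 14 at 1 mW with 1x. U11 was thus near its 680 s value at 30 s in both series of 2.6 mW, whereas U12 was at or near the lowest value at 30 s in every series and was high in all 4 libraries of 680 s. Rmrp was the RNA in which 4.2x Dazl at 1 mW gave more coverage at 30 s than 1x Dazl at 2.6 mW, 50 against 15.

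**Figure D2:**
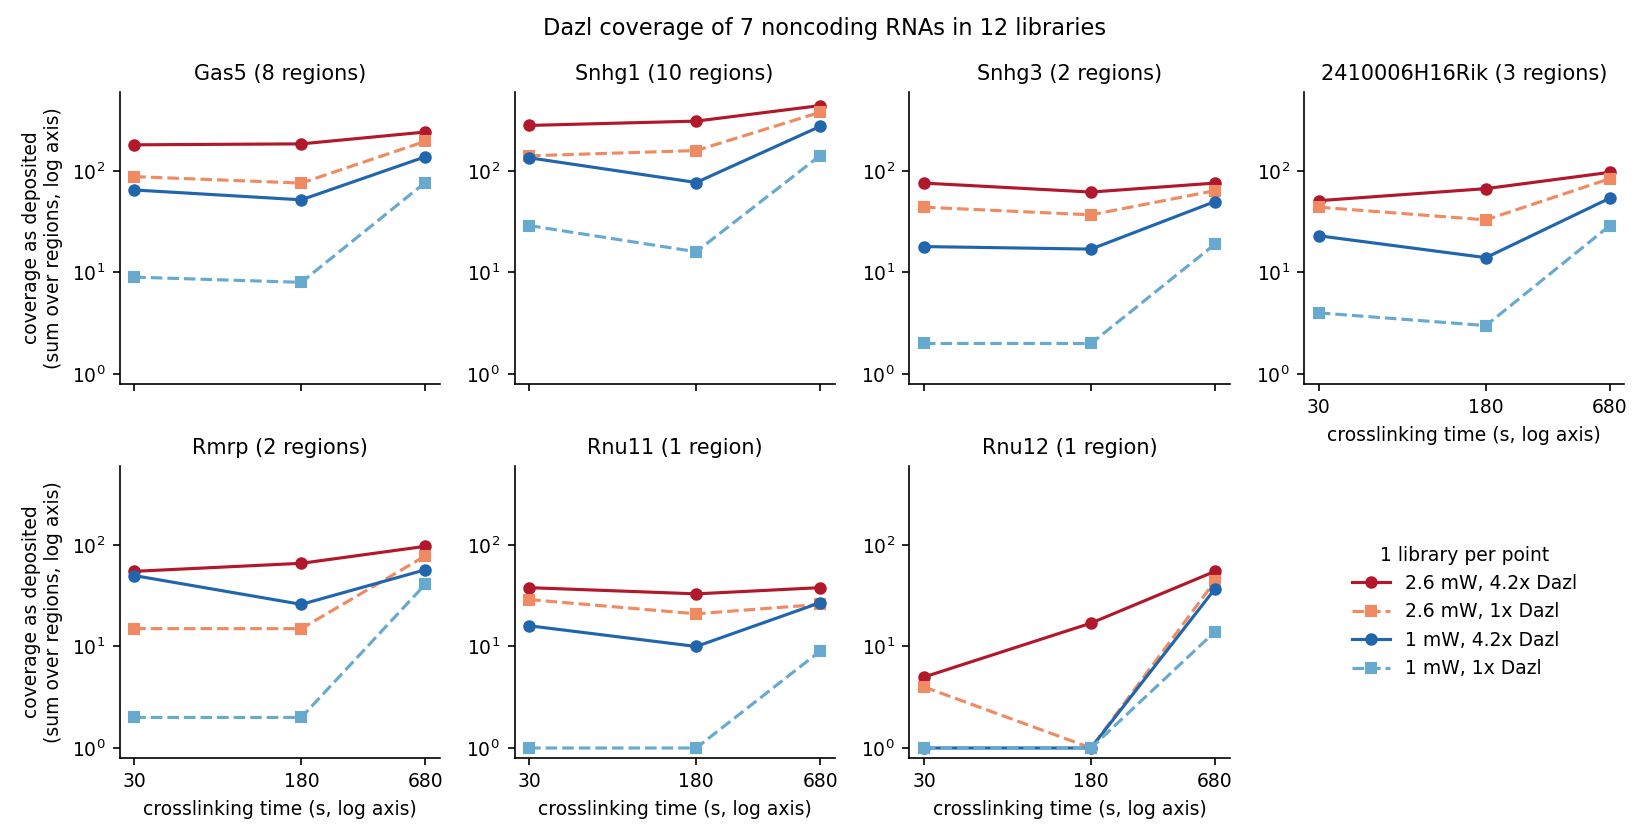
Coverage as deposited, summed over the regions of each RNA (vertical axis, log scale), against crosslinking time in s (log scale), with 1 library per point and a line per combination of laser power and Dazl level. Rnu12 stays at or below 17 until 180 s and reaches 14 to 55 at 680 s, while Rnu11 is flat at 38, 33 and 38 in the series of 2.6 mW and 4.2x Dazl.

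Per nt of listed region the RNAs lay close together at the strongest condition. At 680 s, 2.6 mW and 4.2x Dazl, coverage per nt was 3.24 for Rnu12, 2.85 for Rmrp, 2.33 for Snhg1, 2.24 for both Snhg3 and Rnu11, 1.90 for 2410006H16Rik and 1.78 for Gas5. At 30 s in the same series it was 2.24 for both Snhg3 and Rnu11, 1.62 for Rmrp, 1.49 for Snhg1, 1.33 for Gas5, 1.00 for 2410006H16Rik and 0.294 for Rnu12, so that Rnu12 stood last at 30 s and first at 680 s. With 1 library per condition no spread is available, and the order of neighbours was not tested. Within the hosts, regions in snoRNAs and regions outside them had similar coverage at 680 s, 2.6 mW and 4.2x, with 2.08 and 2.07 per nt. At 30 s with 2.6 mW and 1x Dazl they had 0.898 and 0.690 per nt, and regions at 30 s ranged from 2 to 31 in snoRNAs and from 1 to 39 outside, so the classes overlapped.

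Libraries of 4.2x and 1x Dazl were set against each other to see how binding to these RNAs follows the amount of protein. All 7 RNAs rose with Dazl on values as deposited, in an additive limma fit of log2(value + 3) on time, laser power and Dazl level over all 3630 genes, in which 81.6% of genes were called higher and 0% lower at an adjusted p under 0.05. A share of 7 of 7 is near that background and is not a result about these RNAs. Rmrp changed by 1.72 ± 0.33 (log2, SE, limma adjusted p = 7.0e-05), Gas5 by 1.37 ± 0.35, Snhg1 by 1.21 ± 0.38, Snhg3 by 1.17 ± 0.31, Rnu11 by 1.12 ± 0.29, 2410006H16Rik by 0.93 ± 0.31 and Rnu12 by 0.68 ± 0.26 (adjusted p = 0.0180). The median of the 7 was 1.17, against 0.86 over all genes. The pseudocount shrinks log2 differences most in genes of low coverage. The 7 ranked from 71 (Snhg1) to 1870 (Rnu12) of 3630 by mean coverage, so these medians are not like for like. The first 6 were higher in 6 of 6 matched pairs of libraries, and Rnu12 in 4 of 6, since it was tied at 1 at 30 and 180 s with 1 mW.

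Ratios of 4.2x to 1x Dazl are given next for the weakest and the strongest pair of libraries. Rmrp had 50 at 4.2x against 2 at 1x after 30 s at 1 mW, a ratio of 25, and 97 against 78 after 680 s at 2.6 mW, a ratio of 1.24. Rnu11 had 16 against 1 and Snhg3 18 against 2 in the first of these pairs, where whole libraries differed 5.00-fold. Ratios to values of 1 or 2 are to the lowest listed values, so their size is uncertain. In the 1x library of the first pair 74.0% of all regions were at 1, so the 5.00-fold ratio also rests in part on lowest values. In the last pair the 7 RNAs had ratios of 1.15 to 1.46, against 1.24 for the whole library. The interaction of Dazl level and laser power, as log2 of the Dazl effect at 2.6 mW over that at 1 mW, was negative for 6 RNAs, from -1.28 ± 0.54 for Rnu11 to -0.82 ± 0.59 for Rmrp, and 0.53 ± 0.50 for Rnu12. The median of the 7 was -0.99, against -0.22 over all genes, with the same limit from the pseudocount. Whole libraries had Dazl ratios of 5.00, 4.29 and 1.93 at 1 mW. At 2.6 mW these were 1.89, 2.16 and 1.24, so whole libraries too had smaller ratios there. The share of all genes with a negative sign is not given. None of the 7 passed (limma, lowest adjusted p = 0.270), where 0% of genes were called positive and 0.0551% negative. At an unadjusted limma p under 0.05 there were 2 of the 7 and 535 of all 3630 genes. Without the library of 680 s, 1 mW and 1x Dazl, 6 of the 7 passed, all negative, with Gas5 at -1.64 ± 0.38 (adjusted p = 0.00683) and Rnu12 not called. In the same fit 24.5% of all genes were called negative and 3.03% positive, so many genes changed call with this library.

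Scaling each library to the same total asks whether an RNA departs from its library. It also multiplies the lowest listed values, which were frequent in weak libraries. None of the 7 departed with Dazl level (limma, 0% of genes called in either direction). At an unadjusted limma p under 0.05 there were 1 of the 7 and 641 of all 3630 genes. Rmrp stood highest at 0.82 ± 0.25 (adjusted p = 0.192), higher in 5 of 6 pairs. Without the 4 libraries of 680 s Rmrp was called, at 1.31 ± 0.24 (adjusted p = 0.0170), as were 1.74% of all genes higher and 0.22% lower. The other 6 lay between -0.14 and 0.37, and the median of all genes was -0.08.

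Comparing 2.6 with 1 mW asks how coverage follows the light. All 7 RNAs rose as deposited, where 93.5% of all genes were called higher and 0% lower, so the count is near the background. Snhg3 rose by 2.00 ± 0.31 (limma adjusted p = 7.7e-07), Gas5 by 1.85 ± 0.35, 2410006H16Rik by 1.78 ± 0.31, Snhg1 by 1.72 ± 0.38, Rnu11 by 1.65 ± 0.29, Rmrp by 1.12 ± 0.33 and Rnu12 by 1.02 ± 0.26. Their median was 1.72, against 1.21 over all genes, with the same limit from the pseudocount. Rnu12 was higher in 5 of 6 pairs, and the other 6 in 6 of 6. Rmrp had 55 at 2.6 mW against 50 at 1 mW after 30 s with 4.2x Dazl, a ratio of 1.10 where the whole library differed 2.33-fold. Rnu11 had 29 against 1 and Snhg3 had 44 against 2 after 30 s with 1x Dazl, where the whole library differed 6.19-fold. The values of 1 and 2 are the lowest these RNAs can have, with 1 and 2 regions.

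On scaled libraries none of the 7 departed with laser power (limma, 0% of genes called in either direction). At an unadjusted limma p under 0.05 there were 1 of the 7 and 1079 of all 3630 genes. Snhg3 stood highest at 0.63 ± 0.21 (adjusted p = 0.126) and Rmrp lowest at -0.29 ± 0.25 (adjusted p = 0.435). Without the library of 680 s, 2.6 mW and 4.2x Dazl, Snhg3 was called at 0.74 ± 0.22 (adjusted p = 0.0421), as were 2.87% of all genes higher and 11.6% lower.

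**Figure D3:**
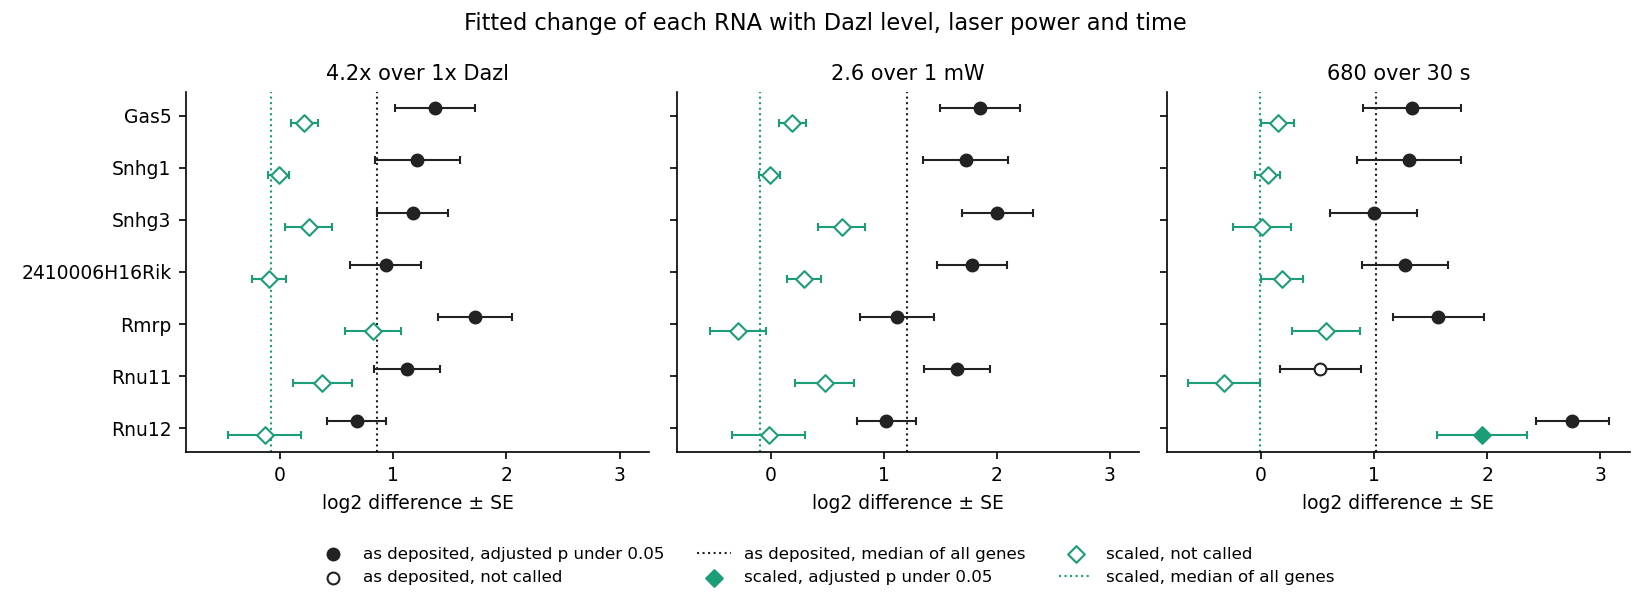
Fitted log2 difference with its SE for each RNA, for 4.2x over 1x Dazl, 2.6 over 1 mW and 680 over 30 s. Black circles are values as deposited and green diamonds scaled libraries, filled where the limma adjusted p was under 0.05, and dotted lines are the medians of all genes. On scaled libraries the filled symbol is Rnu12 with time, at 1.95 ± 0.39.

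Libraries of 680 and 30 s were set against each other to follow accumulation during crosslinking. As deposited, 6 of the 7 RNAs rose, where 72.8% of all genes were called higher and 0% lower, so this count too is near the background. Rnu12 rose by 2.75 ± 0.32 (limma adjusted p = 1.8e-10), Rmrp by 1.57 ± 0.40, Gas5 by 1.33 ± 0.43, Snhg1 by 1.31 ± 0.46, 2410006H16Rik by 1.28 ± 0.38 and Snhg3 by 1.00 ± 0.38 (adjusted p = 0.0203). Rnu11 had 0.53 ± 0.36 and did not pass (adjusted p = 0.169), with higher values at 680 s in 2 of 4 series. The median of the 7 was 1.31, against 1.02 over all genes, again with the limit from the pseudocount.

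The calls of Rnu12, Rmrp and 2410006H16Rik held on leaving out each of the 12 libraries, and those of Gas5, Snhg1 and Snhg3 did not. Without the library of 680 s, 1 mW and 1x Dazl, 3 of 7 were called, with 52.1% of all genes called higher, and Gas5 (adjusted p = 0.0533), Snhg1 (0.0562) and Snhg3 (0.0873) were not. It was 4 of 7 without that of 680 s, 1 mW and 4.2x or that of 680 s, 2.6 mW and 1x, where Snhg1 and Snhg3 were lost and 53.9% and 53.3% of all genes were called higher. It was 5 without that of 30 s, 1 mW and 1x, with 54.8% of all genes. Without the library of 680 s, 2.6 mW and 4.2x Dazl, Rnu11 passed too (0.83 ± 0.35, adjusted p = 0.0371), with 81.2% of all genes called higher.

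On scaled libraries U12 departed from its libraries with time, and the other 6 RNAs did not pass. Rnu12 rose by 1.95 ± 0.39 relative to the library (limma adjusted p = 0.00789), higher in 4 of 4 series, where 9.28% of all genes were called higher and 1.54% lower. It took 0.0217% of the library at 680 s with 2.6 mW and 4.2x Dazl, against 0.00287% at 30 s, and 0.0240% against 0.00134% at 1 mW with 4.2x. It stayed past the threshold on leaving out each of the 12 libraries, with 1.72 to 2.22. The 30 s values behind it are 1, 1, 4 and 5, at or close to the lowest listed value, and the difference was 2.37 with a pseudocount of 1 and 1.27 with 10, past the threshold with both. Rnu11, the partner of U12 in the same particle, had -0.32 ± 0.32 (adjusted p = 0.510), with 38 and 38 at 680 and 30 s in the series of 2.6 mW and 4.2x. The difference between the RNAs was not tested. The other 5 lay between 0.01 for Snhg3 and 0.58 ± 0.30 for Rmrp (adjusted p = 0.227).

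Within Gas5, Snhg1 and 2410006H16Rik, regions of the same RNA had unlike time courses. A fit of the scaled values across all 8338 regions, added after the data had been seen, called 7 of the 27 regions higher and 1 lower at 680 than at 30 s, where 13.3% of all regions were called higher and 1.37% lower. The median of the 27 was 0.15, against -0.01 over all regions. Of the 7, 2 lay in Gas5, 2 in Snhg1, 2 in 2410006H16Rik and 1 was that of Rnu12, and 3 of the 6 in hosts overlapped a snoRNA gene. The count of 8 was 5 without the library of 680 s, 1 mW and 1x Dazl or without that of 30 s, 1 mW and 4.2x.

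In Snhg1, the region at 8725360 to 8725376, inside the snoRNA gene LOC115489086, had 3, 4 and 44 in the 3 libraries of 2.6 mW and 4.2x Dazl, 3, 3 and 43 at 2.6 mW with 1x, 1, 1 and 32 at 1 mW with 4.2x, and 1, 1 and 13 at 1 mW with 1x. Its neighbour 31 nt away, at 8725312 to 8725328, outside the snoRNA, had 40, 33 and 40, then 23, 22 and 39, then 18, 13 and 28, and 1, 1 and 10 in the same order of series. The first rose by 1.95 ± 0.34 relative to the library (limma adjusted p = 0.00130), and the second had -0.12 ± 0.32 (adjusted p = 0.825). The region at 8724131 to 8724147, upstream of all others in Snhg1, rose by 1.71 ± 0.39 (adjusted p = 0.00545), with 6, 15 and 40 at 2.6 mW and 4.2x Dazl. Both late regions were at 1 at 30 and 180 s in the 2 series of 1 mW.

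In Gas5, the region at 161037742 to 161037758, outside snoRNAs and, like every Gas5 region from 161037616 on, in the stretch that another gene also spans, stood at 1 at both 30 and 180 s in all 4 series and had 31, 21, 19 and 11 at 680 s. It rose by 1.69 ± 0.35 relative to the library (limma adjusted p = 0.00338). The region at 161037683 to 161037699, 42 nt before it, had 18, 21 and 28 at 2.6 mW with 4.2x Dazl and 0.32 ± 0.27 (adjusted p = 0.457). The region at 161037616 to 161037632, in the snoRNA gene LOC115487645, had 9, 17 and 30 there and rose by 1.30 ± 0.38 (adjusted p = 0.0215), a call that was lost without any one of 4 libraries (adjusted p between 0.0711 and 0.0949). At the 3′ side, the Snord47 region had 32, 31 and 32 at 2.6 mW with 4.2x and 31, 18 and 28 at 2.6 mW with 1x, with -0.49 ± 0.34 (adjusted p = 0.368). The region that overlaps LOC115487640 had 32, 32 and 32, then 28, 25 and 28.

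2410006H16Rik held regions that moved in opposite directions. That at 62603350 to 62603366 had 32, 32 and 32 at 2.6 mW with 4.2x Dazl, 39, 23 and 28 at 2.6 mW with 1x, 20, 9 and 15 at 1 mW with 4.2x, and 2, 1 and 4 at 1 mW with 1x, and fell by 1.06 relative to the library (SE 0.33, limma adjusted p = 0.0299). That at 62603542 to 62603558, 175 nt further on, had 13, 21 and 36, then 3, 9 and 32, then 1, 1 and 16, and 1, 1 and 14, and rose by 1.30 ± 0.34 (adjusted p = 0.0119). The Snord65 region, with 6, 14 and 29 at 2.6 mW and 4.2x, rose by 1.34 ± 0.35 (adjusted p = 0.0120). The fall was lost without any one of 4 libraries, those of 680 s and 1 mW with 1x, 30 s and 1 mW with 4.2x, 30 s and 2.6 mW with 1x, and 680 s and 2.6 mW with 4.2x (adjusted p = 0.0862 to 0.151). The second region was lost without the first or the third of these (0.0604 and 0.0686), and the Snord65 region without the second (0.0606).

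The 2 regions of Rmrp crossed between series. That at 43492926 to 43492942 had 48, 39 and 48 at 2.6 mW with 4.2x Dazl and 2, 2 and 42 at 2.6 mW with 1x, while that at 43492807 to 43492823 had 7, 27 and 49, and 13, 13 and 36. At 1 mW with 4.2x they had 25, 18 and 33 and 25, 8 and 24. Which region filled first thus differed between Dazl levels at 2.6 mW, in single libraries, and neither passed with time (0.75 ± 0.41 and 0.59 ± 0.38, limma adjusted p = 0.235 and 0.331).

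Late and early regions were found both in and outside snoRNAs. In the series of 2.6 mW and 4.2x Dazl, 7 of 12 regions in snoRNAs and 6 of 11 outside had the same value at 30 and 680 s, and 2 of each had under 25% of the 680 s value at 30 s. Over all 27 regions 6 (22.2%) were under 25%, against 18.3% of all regions with at least 10 at 680 s. In the series of 2.6 mW and 1x Dazl these shares were 44.4% and 36.3%, and in that of 1 mW and 4.2x Dazl 37.0% and 33.7%.

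**Figure D4:**
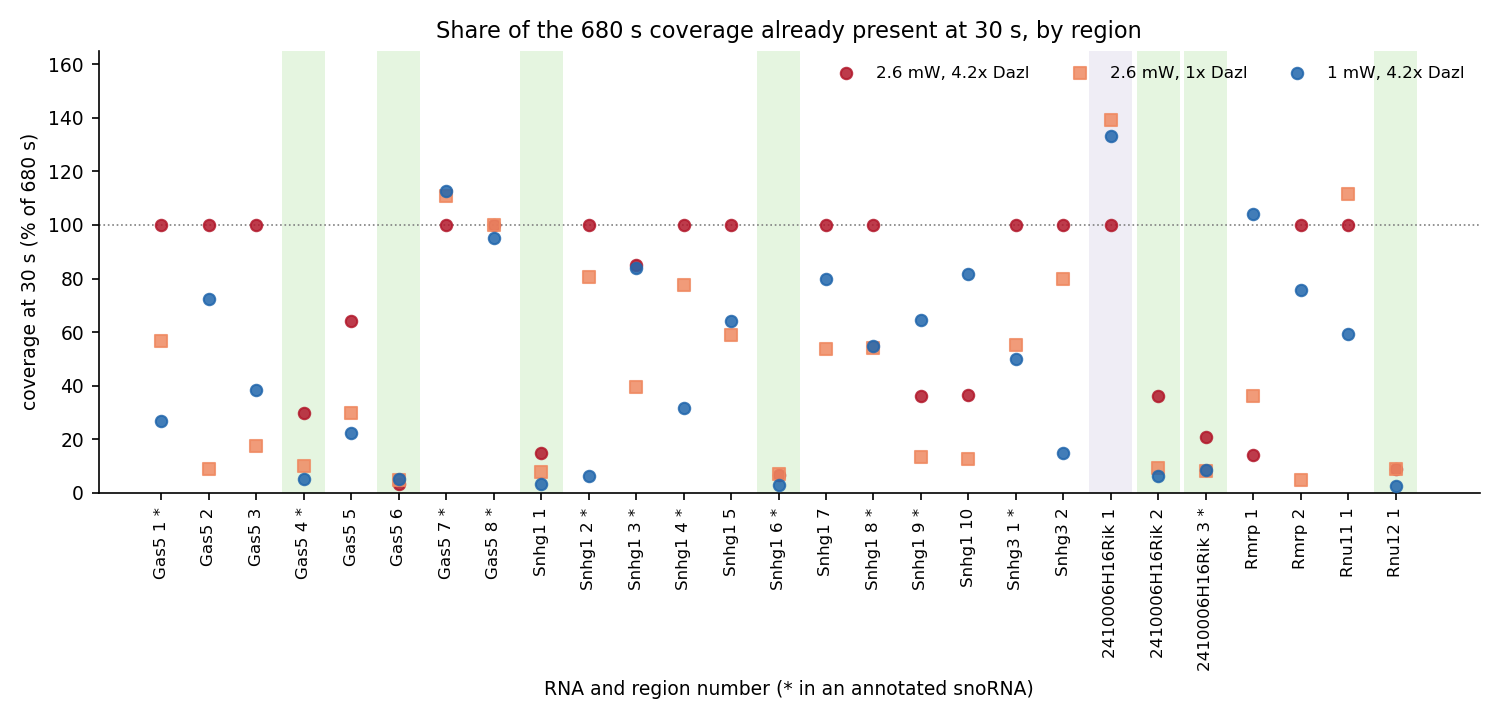
Coverage at 30 s as a percentage of that at 680 s (vertical axis) for each of the 27 regions, in the 3 series other than 1 mW with 1x Dazl, with an asterisk for regions in an annotated snoRNA gene. Green bands are regions called higher and the violet band the region called lower at 680 s in the scaled region fit. Points of 1 RNA range from 3.23% to 100% in Gas5 at 2.6 mW and 4.2x Dazl.

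Other genes of the same pathways were sparsely listed. Of 173 other snoRNA hosts and small RNAs in the annotation 26 had a region, 4 of which share regions with the hosts above, and Snhg12 and Snord99 rest on the same single region. Of the other 22, 18 were higher with 4.2x Dazl, 19 with 2.6 mW and 18 at 680 s as deposited, with medians of 0.77, 1.15 and 1.24, each count near the background shares given above. On scaled libraries 0 of 22 were called for Dazl level and laser power, where 0% of all genes were. With time 3 of 22 rose, where 9.28% of all genes were called higher, so this count too is near the background. The 3 were Snord37, Snord45c and Snord55, by 1.51 ± 0.37, 1.66 ± 0.34 and 1.22 ± 0.37. Snord45c had 1, 1 and 30 in the 3 libraries of 2.6 mW and 4.2x Dazl, a course like that of the late Gas5 region. Snord15b, a C/D box snoRNA with the highest mean coverage of these 22, had 64, 64 and 64 in the same series.

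Of 8 proteins of the minor spliceosome, Snrnp35, a protein of the U11/U12 particle, had regions, with 49, 51 and 67 at 2.6 mW and 4.2x Dazl. Of 10 snoRNP proteins, Fbl, the box C/D methyltransferase, had 27, 23 and 28, and Nop56, a core box C/D protein, 20, 22 and 28. Of 10 nonsense-mediated decay factors, Upf1, Upf2 and Smg1 had regions. None of the 11 proteins of RNase MRP and P had one. All 6 of these genes rose with Dazl level and laser power as deposited, where 81.6% and 93.5% of all genes did, and 4 of 6 rose with time, where 72.8% did, Fbl (0.64 ± 0.34, limma adjusted p = 0.0810) and Upf1 (0.42 ± 0.32, adjusted p = 0.225) being the others. None of the 6 was called on scaled libraries for any of these comparisons. There 0% of all genes were called for Dazl level and laser power, and 9.28% higher and 1.54% lower with time. Genes without a region were not tested, since the files hold sites chosen by the authors.

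The courses most like each RNA, by Pearson correlation over the 12 libraries of scaled log2 values among 2440 to 2445 genes with a mean of at least 10, were those of the genes named next. These correlations share the libraries and their lowest values and describe likeness only. Rnu12 was closest to Cpsf4 (r = 0.99) and Gm39183 (r = 0.98), and Rnu11 to Cntd1 (r = 0.98) and Frmd4b (r = 0.98). Snhg3 was closest to Atp6ap1 and Foxp1 (both r = 0.97), Rmrp to Spr (r = 0.97) and Myl12a (r = 0.95), Gas5 to H13 and Mcts2, which share their region (both r = 0.91), and 2410006H16Rik to Lin7c and Gm38733 (both r = 0.89). Snhg1 had no close match, with Gbp2 at 0.70 and Neat1 at 0.66. Among the 7 RNAs, the highest correlation was between Snhg3 and Rnu11 (r = 0.90) and the lowest between Rnu11 and Rnu12 (r = -0.50).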

How the data were processed

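The authors deposited, per library, intervals of mm10 with a normalized coverage, used here as a score because no header gives its unit. The build is mm10 and the tools named are Bowtie2 and FastQC, per the submitters' processing notes, which give no version. How sites were counted, normalized and selected was not given in the sources used here, so the depth in reads is unknown. Intervals at most 10 nt apart in any of the 12 libraries were joined into 8338 regions, of which 6798 were 17 nt long. A region's value is the sum of width times score. It counts for every RefSeq gene of GRCm38.p6 whose span it overlaps by 1 nt or more, which differs from counting regions of 1 gene only (an alternative, with 3202 genes). In that alternative a region over more than 1 gene still counted for its protein-coding gene if only 1 was among them, and otherwise for none.

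Genes were tested with limma 3.58.1 in R 4.3.3 on log2(value + 3), with 3 taken as the largest of the 12 libraries' own minimum gene values, and with time, laser power and Dazl level as additive terms, eBayes trend and robust settings, 7 residual degrees of freedom (6 with the interaction) and Benjamini-Hochberg adjustment over all genes at 0.05. The median prior degrees of freedom were 51.7 as deposited and 11.3 scaled, so the p-values rest largely on variance shared over genes. Scaled values set each library to the mean total. Alternatives were the pseudocount, joining distance, gene assignment, a filter on mean coverage of 10, eBayes settings, scaling, leaving out libraries and, added after the data had been seen, a block of matched conditions. Named genes are the 7 RNAs, the 2 genes most correlated with each, and up to 4 genes of each list with the highest mean coverage. Other list genes named, and the regions singled out, were chosen after their values were seen. The RNAs, lists and tests were chosen with earlier results of these data known. Some items are not reported here.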

Additional observations from a re-analysis of the deposited data

Results flagged for a closer look

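The 7 RNAs were searched, as deposited and scaled, for Dazl or laser ratios with opposite signs in the 2 groups compared. Only Snhg3 by Dazl level on scaled libraries met this, every log2 ratio being negative at 2.6 mW and positive at 1 mW. The opposite signs are thus the rule by which Snhg3 was picked from many checks. The share of all genes that meet it was not counted. At 2.6 mW the log2 ratio of 4.2x over 1x was -0.13, -0.36 and -0.06 at 30, 180 and 680 s, and at 1 mW it was 0.85, 0.99 and 0.44. The means were -0.18 and 0.76, a difference of -0.94. This difference on scaled values was not tested, and each ratio compares 1 library with 1 library. Snhg3 at 1 mW and 1x Dazl had 2 at both 30 and 180 s, the lowest value its 2 regions can have.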

How the results depend on the processing

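With depth in reads unknown and 1 library per condition, the number of libraries limits precision. The labels carry no replicate numbers, but libraries match in their other 2 conditions. With these matched conditions as a block, added after the data had been seen, 7, 7 and 6 RNAs were called for Dazl level, laser power and time as deposited and 0, 0 and 1 on scaled libraries, the same counts as without the block. Of all genes, 82%, 92.9% and 76.5% were called higher as deposited with the block. On scaled libraries it was 0% for Dazl level and laser power. For scaled time it was 15.2% higher and 3.25% lower, against 9.28% and 1.54% without the block. Leaving out single libraries gave 6 to 7 RNAs called for Dazl level, 7 in each case for laser power and 3 to 7 for time as deposited, 0, 0 to 1 and 1 on scaled libraries, 0 to 6 for the interaction and 5 to 9 regions with time. Over all genes the shares called higher as deposited were 68% to 80.6%, 86.7% to 94.1% and 52.1% to 81.2%. On scaled libraries the shares higher were 0% to 1.24%, 0% to 2.87% and 3.03% to 13%. The shares lower there were 0% to 0.193%, 0% to 11.6% and 0.358% to 1.98%. For the interaction 0% to 3.03% were called positive and 0% to 24.5% negative. Shares over all regions are not given for these fits. Without the 4 libraries of 680 s, 1 RNA (Rmrp) was called for scaled Dazl level, where 1.74% of all genes were called higher and 0.22% lower. For the interaction without them, 3 RNAs (Gas5, Snhg3 and Rnu11) were called, all negative, where 9.26% of all genes were called negative and 8.68% positive. The other alternatives kept each count within 1.5 times. Rnu12 was not called for Dazl level without the library of 680 s, 1 mW and 4.2x (adjusted p = 0.0586), of 180 s and 2.6 mW with 1x (0.120) or with 4.2x (0.111), without all of 680 s (0.160), or with plain eBayes settings (0.0570). The cause was not tested.

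Sign changes all concerned values that were not called in limma. Counting regions of 1 gene only dropped the host regions in snoRNA genes and the Gas5 regions that another gene spans. With regions of 1 gene only, scaled values were 0.24 for Snhg1 and -0.22 for Snhg3 with Dazl level, -0.21 for Gas5 with laser power and -0.21 for 2410006H16Rik with time, and the Gas5 interaction was 0.20. Scaling by median ratio gave 0.0099 for Snhg1 with Dazl level, 0.092 for Snhg1 and 0.047 for Rnu12 with laser power, and -0.052 for Snhg3 with time. A pseudocount of 10 gave -0.011 for Snhg3 with time. Leaving out single libraries gave, with Dazl level, -0.073 to 0.036 for Snhg1 and -0.41 to 0.046 for Rnu12, with laser power, -0.066 to 0.041 for Snhg1 and -0.25 to 0.26 for Rnu12, and with time, -0.012 to 0.13 for Snhg1 and -0.22 to 0.22 for Snhg3.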
